A study of Mus musculus with 30 samples.

Results

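The 10 genes described here encode laminin chains and the glycoproteins that sit with laminins in the vascular basement membrane, the thin sheet of matrix on which endothelial cells (ECs) rest. They were taken by name from 21820 protein-coding genes. The set holds 6 laminin chains (Lama2, Lama4, Lama5, Lamb1, Lamb2 and Lamc1), both nidogens (Nid1 and Nid2), perlecan (Hspg2) and agrin (Agrn). For each gene the estimated counts and TPM (a transcript's share of its library, corrected for length) of all its transcripts were summed in each of 14 RNA-seq libraries, and all 10 genes had enough counts to be tested in every comparison.

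The study asked how mouse brain ECs change when they are removed from the brain and grown in vitro, and whether stabilized beta-catenin, the effector of canonical Wnt signaling, alters that change. The 14 RNA-seq libraries fell into 4 groups, all from adult males. Acutely isolated ECs (2 libraries) were the GFP-positive cells sorted by FACS from Tie2-GFP brains, in which the Tie2 promoter drives GFP, and the GFP-negative cells of the same genotype (2 libraries) held everything else that passed the sort. WT cultured ECs (6 libraries) had been grown for 8 days on collagen I with puromycin selection, which spares cells that carry the drug efflux pump of brain ECs. WT replicates 1 and 2 came from C57BL/6J mice by isolation method A (papain digestion), and replicates 3 to 6 came from Ctnnb1flex3/+;Tie2-GFP mice by method B (homogenization, then collagenase/dispase). Replicates 3 and 4 were read for 150 cycles at another facility and all other cultures for 36 cycles. A figure legend of the study instead assigned method A to every WT RNA-seq library not handled by that facility. The study's methods section was followed here. Stabilized cultured ECs (4 libraries) came from Ctnnb1flex3/+;Pdgfb-CreER;Tie2-GFP mice, in which 4-hydroxytamoxifen given to pups lets the Pdgfb-driven CreER excise exon 3 of 1 copy of Ctnnb1, with replicates 1 and 2 by method A and 3 and 4 by method B. The Ctnnb1flex3/+;Tie2-GFP controls carried the same floxed copy without CreER and were also given 4-hydroxytamoxifen. Replicates of a culture were wells, 2 per experiment, made from pooled brains, so p-values measure the spread between wells and experiments. The summed count of Ctnnb1 cannot show the loss of exon 3, and the genotype was therefore taken from the labels.

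A laminin is a trimer of an alpha, a beta and a gamma chain, and many laminins polymerize on the cell surface. The alpha chain binds integrins and dystroglycan, the nidogens bridge the gamma chain to the collagen IV network, and perlecan and agrin are heparan sulfate proteoglycans that tie the network to dystroglycan and to growth factors. In brain vessels, ECs lay down laminins with the alpha 4 and alpha 5 chains, laminins with the alpha 2 chain come mainly from astrocytes and mural cells, and agrin is a known constituent of the microvascular basement membrane.

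Library depth ran from 24284843 to 94686456 estimated counts. The summed TPM of 10 endothelial markers was 3866 to 4345 in acutely isolated ECs, 2077 to 4730 in WT cultures and 2272 to 6518 in stabilized cultures, against 103 to 115 in GFP-negative cells. The 8 pericyte markers summed to 541 to 553 in acutely isolated ECs, 377 to 743 in GFP-negative cells, 4.45 to 10.5 in WT cultures and 6.25 to 19.9 in stabilized cultures. The 6 astrocyte markers summed to 1448 to 3534 in GFP-negative cells, 87.7 to 467 in acutely isolated ECs and 3.36 to 45.8 in WT cultures. Sorted libraries were single-end reads of amplified cDNA and cultures were paired-end, so culture and read type cannot be told apart. In the deposited acutely isolated data the reads of cerebrum and cerebellum had been combined.

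The sequences shown first are those that bear on accessible chromatin at 4 of the genes, measured by ATAC-seq, which cuts open DNA with a transposase. Of the 10 genes, 7 had an entry in the RefSeq promoter table (GRCm38.p6, 250 bases before to 50 after a transcription start). Lama4, Lamc1 and Nid2 had none. Both promoters are given on the strand of the gene, with capitals marking the SP/KLF motif GGGCGG or its reverse complement. The promoter of Lamb1 is shown because it had no ATAC peak in acutely isolated ECs and had one in most cultures. It lies at chr12:31265043-31265342 on the plus strand.

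Lamb1 promoter: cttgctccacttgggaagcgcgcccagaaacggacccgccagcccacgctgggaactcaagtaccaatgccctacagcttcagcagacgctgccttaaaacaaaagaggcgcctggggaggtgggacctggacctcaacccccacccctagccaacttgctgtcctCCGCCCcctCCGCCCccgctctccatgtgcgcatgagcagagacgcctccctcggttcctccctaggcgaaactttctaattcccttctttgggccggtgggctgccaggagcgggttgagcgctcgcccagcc

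The promoter at the gene start of Agrn is shown because it stayed accessible in every library while the transcript was much lower in culture. It lies at chr4:156197439-156197738 on the minus strand and holds 12 matches to the SP/KLF motif. Agrn had another entry, at chr4:156186210-156186509, which is not shown. An accessible region over that entry was present in no acutely isolated library, 2 WT cultures and 2 stabilized cultures.

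Agrn promoter: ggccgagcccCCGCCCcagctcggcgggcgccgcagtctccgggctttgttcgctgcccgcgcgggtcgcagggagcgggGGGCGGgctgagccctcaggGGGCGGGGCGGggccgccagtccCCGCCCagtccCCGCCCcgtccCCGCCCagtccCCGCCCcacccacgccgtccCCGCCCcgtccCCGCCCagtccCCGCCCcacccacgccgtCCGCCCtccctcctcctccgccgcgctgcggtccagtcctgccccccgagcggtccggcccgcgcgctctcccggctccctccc

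The next 4 sequences are 300-base windows around the summits of intronic regions that were accessible in all 6 WT cultures and in neither acutely isolated library. They are given on the plus strand of the GRCm38 genome, with capitals marking the AP-1 motif TGANTCA and the TEAD motif CATTCC or its reverse complement GGAATG. The first lies 6300 bases into Lamb1, the next pair 49614 and 32239 bases into Lamc1, and the last 3896 bases into Nid1.

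Lamb1 intron, chr12:31271384-31271683: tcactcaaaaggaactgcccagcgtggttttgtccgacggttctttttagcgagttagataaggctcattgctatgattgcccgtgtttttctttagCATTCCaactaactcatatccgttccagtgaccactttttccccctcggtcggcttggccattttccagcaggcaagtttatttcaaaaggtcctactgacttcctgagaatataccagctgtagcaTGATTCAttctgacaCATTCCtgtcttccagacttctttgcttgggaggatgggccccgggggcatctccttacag

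Lamc1 intron, chr1:153283022-153283321: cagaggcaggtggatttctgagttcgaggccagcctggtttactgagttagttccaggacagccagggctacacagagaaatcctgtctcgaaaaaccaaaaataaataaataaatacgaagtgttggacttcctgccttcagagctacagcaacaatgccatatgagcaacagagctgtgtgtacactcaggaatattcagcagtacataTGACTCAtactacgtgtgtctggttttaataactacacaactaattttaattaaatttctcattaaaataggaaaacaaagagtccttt

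Lamc1 intron, chr1:153300397-153300696: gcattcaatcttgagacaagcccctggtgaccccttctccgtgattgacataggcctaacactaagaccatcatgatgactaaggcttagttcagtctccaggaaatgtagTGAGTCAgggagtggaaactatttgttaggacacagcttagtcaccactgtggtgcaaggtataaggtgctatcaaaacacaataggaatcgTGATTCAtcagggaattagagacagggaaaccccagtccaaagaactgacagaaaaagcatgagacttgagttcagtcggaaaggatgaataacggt

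Nid1 intron, chr13:13441297-13441596: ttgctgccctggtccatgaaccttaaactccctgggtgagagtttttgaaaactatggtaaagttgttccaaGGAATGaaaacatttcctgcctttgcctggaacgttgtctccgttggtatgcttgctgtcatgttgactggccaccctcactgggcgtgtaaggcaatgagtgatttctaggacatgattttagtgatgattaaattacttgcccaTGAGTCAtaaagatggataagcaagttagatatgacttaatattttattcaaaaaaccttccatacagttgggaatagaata

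The question in culture was which basement membrane genes ECs kept, lost or gained after 8 days. Of the 10 genes, 1 rose (Lamb1) and 1 fell (Agrn) in WT cultured against acutely isolated ECs. Lama2 was also lower, at a level below the expression minimum, and the other 7 did not pass the test. A gene was called at an edgeR adjusted p under 0.05 and a fold change over 2, provided that each library of the higher group showed 5 TPM or more. By that rule 13.5% of 13784 tested genes were called higher and 10.2% lower, so 1 gene in each direction was no more than the share of all genes. Regardless of size and level, 3 of the 10 had an adjusted p under 0.05 (Agrn, Lama2 and Lamb1), as did 45.2% of all tested genes. The median log2 fold change was −0.17 over the 10 genes and 0.10 over all tested genes. Levels between groups are given below as scaled CPM, the library-scaled count after TMM normalization, because TPM was not comparable between sorted and cultured libraries. In Nid1, the ratio of TPM to scaled CPM was 0.0437 to 0.0716 in acutely isolated ECs and 0.109 to 0.254 in WT cultures.

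**Figure D1:**
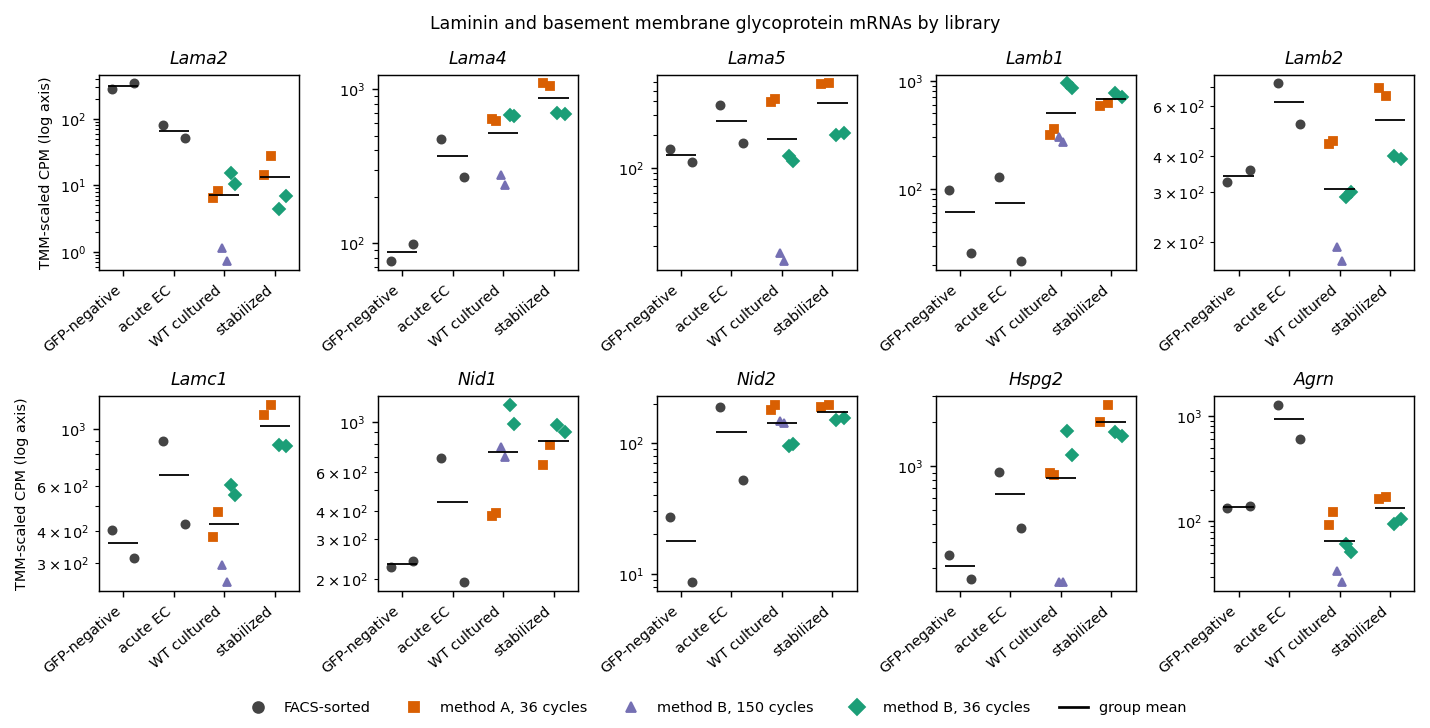
Scaled CPM (log axis) of each of the 10 genes in each of the 14 RNA-seq libraries, with 1 panel per gene, 1 point per library, the marker shape giving the experiment and a line at the group mean. The 2 acutely isolated libraries of Agrn, at 600 and 1277, lie above all 10 cultures, and the 2 of Lamb1, at 21.4 and 128, lie below all 10.

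Among the alpha chains, Lama4 encodes the alpha 4 chain typical of endothelium (ENSMUSG00000019846.11, chr10:38965515-39110188, plus strand). Its scaled CPM was 472 and 268 in acutely isolated ECs and 75.9 and 97.8 in GFP-negative cells. The WT cultures gave 640, 625, 277, 237, 676 and 670, and the stabilized cultures 1091, 1046, 705 and 688. The WT cultures overlapped the acutely isolated ECs, the 150-cycle pair being the lowest, while the 4 stabilized cultures all lay above them. In WT culture the log2 fold change was 0.49 ± 0.51 (SE, edgeR adjusted p = 0.463).

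Lama5 encodes the alpha 5 chain, which in brain vessels is found beneath ECs in an uneven pattern (ENSMUSG00000015647.9, chr2:180176373-180225859, minus strand). Scaled CPM was 369 and 169 in acutely isolated ECs and 150 and 113 in GFP-negative cells. WT cultures gave 392 and 422 by method A, 17.2 and 14.6 in the 150-cycle pair and 128 and 117 in the other method B pair, and stabilized cultures gave 577, 581, 200 and 207. The log2 fold change in WT culture was −0.57 ± 1.12 (SE, adjusted p = 0.698), and the 3 experiments fell on both sides of the acutely isolated ECs. Against the 150-cycle cultures alone Lama5 was called lower, with a log2 fold change of −4.09.

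Lama2 encodes the alpha 2 chain (ENSMUSG00000019899.16, chr10:26980036-27619758, minus strand), which was highest in GFP-negative cells. Scaled CPM was 282 and 342 in GFP-negative cells and 81.4 and 51.4 in acutely isolated ECs. It was between 0.718 and 15.5 in WT cultures, with a median of 7.36, and between 4.39 and 27.5 in stabilized cultures. No culture reached the lower of the acutely isolated libraries. The log2 fold change in WT culture was −3.23 ± 0.87 (SE, adjusted p = 0.0155), but Lama2 was not called because its TPM was 4.21 and 2.72 in the acutely isolated libraries, under the minimum of 5. Astrocyte and pericyte markers were lower in the same cultures, and their part in this difference was not tested. In these bulk libraries, fewer cells of a type and less RNA per cell cannot be told apart.

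Between the beta chains the balance differed between acutely isolated and cultured ECs. Lamb1 encodes the beta 1 chain (ENSMUSG00000002900.16, chr12:31265234-31329644, plus strand). Its scaled CPM was 128 and 21.4 in acutely isolated ECs and 97.5 and 25.4 in GFP-negative cells. WT cultures gave 313, 357, 302, 271, 944 and 862, and stabilized cultures 590, 628, 777 and 711. Every culture lay above both acutely isolated libraries, which themselves differed several-fold. The log2 fold change in WT culture was 2.76 ± 0.88 (SE, adjusted p = 0.0305). It was above 0 in all 22 alternative settings, from 1.93 to 4.54, and was called in 18 of them. The call was lost when the wells of each experiment were summed (log2 fold change 2.83, adjusted p = 0.0527), with method A or 150-cycle cultures alone and without acutely isolated replicate 2 (log2 fold change 1.95, adjusted p = 0.132).

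Lamb2 encodes the beta 2 chain (ENSMUSG00000052911.9, chr9:108479736-108490530, plus strand), a chain that is abundant in mature vessels and at synapses. Scaled CPM was 719 and 519 in acutely isolated ECs and 324 and 357 in GFP-negative cells. WT cultures gave 440, 453, 193, 171, 287 and 299, and stabilized cultures 695, 651, 400 and 390. All 6 WT cultures lay below both acutely isolated libraries, whereas the stabilized cultures overlapped them. Lamb2 had a log2 fold change in WT culture of −1.02 ± 0.42 (SE, adjusted p = 0.0737), which missed the threshold, and Lamb2 was called lower in 5 of 22 alternatives.

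Lamc1 encodes the gamma 1 chain shared by most laminins and bound by nidogen (ENSMUSG00000026478.14, chr1:153218922-153332786, minus strand). Scaled CPM was 898 and 426 in acutely isolated ECs and 405 and 315 in GFP-negative cells. WT cultures ran from 252 to 608, with a median of 428, and stabilized cultures gave 1139, 1252, 866 and 863. The WT cultures overlapped both sorted groups, and all 4 stabilized cultures lay above all 6 WT cultures. In WT culture Lamc1 stood at −0.64 ± 0.43 (SE, adjusted p = 0.251) on the log2 scale.

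The nidogens link laminin to collagen IV. Nid1 (ENSMUSG00000005397.8, chr13:13437551-13512269, plus strand) had a scaled CPM of 692 and 193 in acutely isolated ECs and 227 and 241 in GFP-negative cells. WT cultures gave 380, 393, 770, 698, 1196 and 981, overlapping the acutely isolated ECs, and the log2 fold change was 0.72 ± 0.62 (SE, adjusted p = 0.361). The method A cultures were the lowest. Nid2 (ENSMUSG00000021806.4, chr14:19751265-19811787, plus strand) was at 190 and 52.5 in acutely isolated ECs and at only 27.3 and 8.60 in GFP-negative cells. WT cultures ran from 95.2 to 197 and stabilized cultures from 150 to 195, and both overlapped the acutely isolated ECs. The log2 fold change in WT culture was 0.23 ± 0.49 (SE, adjusted p = 0.726).

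Perlecan and agrin are the heparan sulfate proteoglycans of the set. Hspg2 encodes perlecan, a very large heparan sulfate proteoglycan (ENSMUSG00000028763.17, chr4:137468769-137570630, plus strand). Scaled CPM was 909 and 372 in acutely isolated ECs and 244 and 168 in GFP-negative cells. WT cultures gave 886 and 867 by method A, 159 and 158 in the 150-cycle pair and 1732 and 1182 in the other method B pair. Stabilized cultures gave 1984, 2633, 1718 and 1604. WT cultures lay on both sides of the acutely isolated ECs, and the log2 fold change was 0.37 ± 0.90 (SE, adjusted p = 0.758). In the 150-cycle cultures alone it was called lower, at −2.02.

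Agrn encodes agrin (ENSMUSG00000041936.18, chr4:156165290-156197488, minus strand), which clusters acetylcholine receptors at the neuromuscular junction and binds dystroglycan. Scaled CPM was 1277 and 600 in acutely isolated ECs and 135 and 140 in GFP-negative cells. WT cultures gave 93.1, 123, 34.0, 26.4, 60.8 and 51.3, and stabilized cultures 164, 172, 94.7 and 105. Every culture lay far below both acutely isolated libraries, and all 6 WT cultures lay below the GFP-negative cells as well. The log2 fold change in WT culture was −3.87 ± 0.54 (SE, adjusted p = 0.000835). Agrn was called lower in all 22 alternatives, from −4.97 to −3.04. Pericyte markers were lower in the same cultures, and their part in this difference was not tested.

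**Figure D2:**
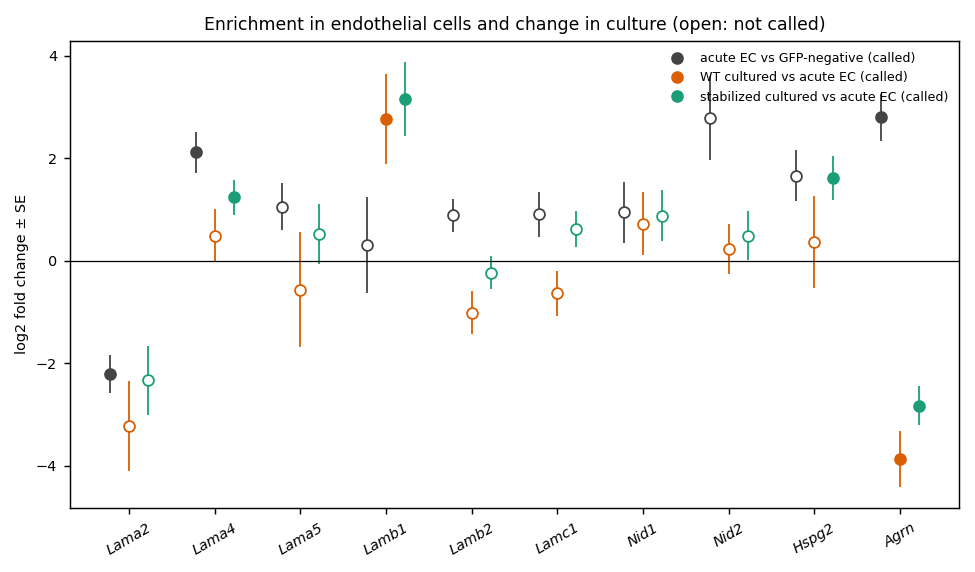
Log2 fold change (y axis) with its standard error for each of the 10 genes in acutely isolated ECs against GFP-negative cells, WT culture against acutely isolated ECs and stabilized culture against acutely isolated ECs, with filled points for called genes and open points for the rest. Agrn is called in all 3 comparisons, at 2.79, −3.87 and −2.83, and Lamb1 is called in both culture comparisons, at 2.76 and 3.16.

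Stabilized cultures were also set against acutely isolated ECs. Both culture comparisons used the same 2 acutely isolated libraries, so the second is shown for its own values and not as a second test of the first. Of the 10 genes, 3 rose, where 15.1% of 13888 tested genes were called higher, and 1 fell, where 11% were called lower. On the log2 scale Lamb1 rose by 3.16 ± 0.72 (SE, edgeR adjusted p = 0.00949). Hspg2 rose by 1.61 ± 0.43 (adjusted p = 0.0175) and Lama4 by 1.24 ± 0.35 (adjusted p = 0.0208). Agrn was lower, at −2.83 ± 0.38 (adjusted p = 0.00124). Lama2 stood at −2.34 ± 0.67 (adjusted p = 0.0231) and did not meet the TPM minimum. In all, 5 of the 10 had an adjusted p under 0.05, against 56.7% of all tested genes. The other 5 ran from −0.23 for Lamb2 to 0.88 for Nid1, none passing the test. Against method B stabilized cultures alone, none of the 3 passed: adjusted p was 0.0518 for Lamb1, 0.0831 for Hspg2 and 0.0853 for Lama4. Against method A stabilized cultures alone, Lamb1 (adjusted p = 0.0687) and Hspg2 (0.0553) did not pass. With the wells of each experiment summed, adjusted p was 0.061 for Hspg2 and 0.0695 for Lama4, and both calls were lost. The call of Hspg2 was also lost with the transcript length offset (log2 fold change 0.75, adjusted p = 0.298) and with all 14 libraries in 1 fit (adjusted p = 0.132). That of Lama4 was also lost with long coding transcripts (adjusted p = 0.0593) and without acutely isolated replicate 2 (adjusted p = 0.0842).

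Within a library, the share of a chain among chains of its kind does not depend on how the library was scaled. It does depend on how reads were divided among transcripts, so shares were taken from long coding transcripts only (coding transcripts at least 50% as long as the longest of the gene). Several short non-coding or truncated transcripts took much of the TPM in sorted libraries and little in cultures. The retained-intron transcript Lamb2-202, 221 bases long, held 52.1% of the TPM of Lamb2 in acutely isolated ECs and 7.06% in WT cultures. Lamc1-205, a 762-base transcript annotated for nonsense-mediated decay, held 69.8% of the TPM of Lamc1 in acutely isolated ECs and 2.02% in WT cultures. Hspg2-202, a processed transcript of 820 bases, held 62.9% of the TPM of Hspg2 in acutely isolated ECs, 0% in GFP-negative cells and 0.258% in WT cultures. Salmon estimates these divisions, and read type differed between sorted and cultured libraries.

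On long coding transcripts, Lama4 was the main alpha chain of ECs in every state. It made up 66.8% ± 0.1 (SD, n = 2) of the summed TPM of the 3 alpha chains in acutely isolated ECs, 86.4% ± 10.5 (SD, n = 6) in WT cultures and 80.8% ± 5.6 (SD, n = 4) in stabilized cultures. In GFP-negative cells it made up 23.8% ± 2.0 (SD, n = 2), and Lama2 was the main chain at 56.3% ± 3.6 (SD, n = 2). Lama2 made up 8.59% in acutely isolated ECs and 0.532% in WT cultures. Lama5 made up 24.6% in acutely isolated ECs and ranged from 3.72% to 26.7% in WT cultures.

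The beta chains shifted from Lamb2 towards Lamb1. Lamb1 made up 3.88% and 16.9% of the beta chain TPM in the 2 acutely isolated libraries, 40.1% to 75.5% in the 6 WT cultures and 44.6% to 64.8% in the 4 stabilized cultures. No culture overlapped the acutely isolated ECs or the GFP-negative cells, at 7.42% and 23.8%. The method A cultures had the lowest Lamb1 shares in both genotypes.

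Perlecan and agrin stood in opposite order before and after culture. Hspg2 made up 22.4% and 25.2% of the summed TPM of Hspg2 and Agrn in acutely isolated ECs, 72.1% to 93.3% in WT cultures and 85.6% to 89.8% in stabilized cultures. It made up 39.5% and 46.1% in GFP-negative cells. The groups of ECs did not overlap, and the 150-cycle pair was the lowest of the cultures. With all transcripts counted, the share in acutely isolated ECs was 22.4% and 51.9%, still under every culture, of which the lowest WT culture was at 71.9%. Nid1 made up 73.4% of nidogen TPM in acutely isolated ECs, 76.3% in WT cultures and 79.1% in stabilized cultures, against 91.5% in GFP-negative cells.

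**Figure D3:**
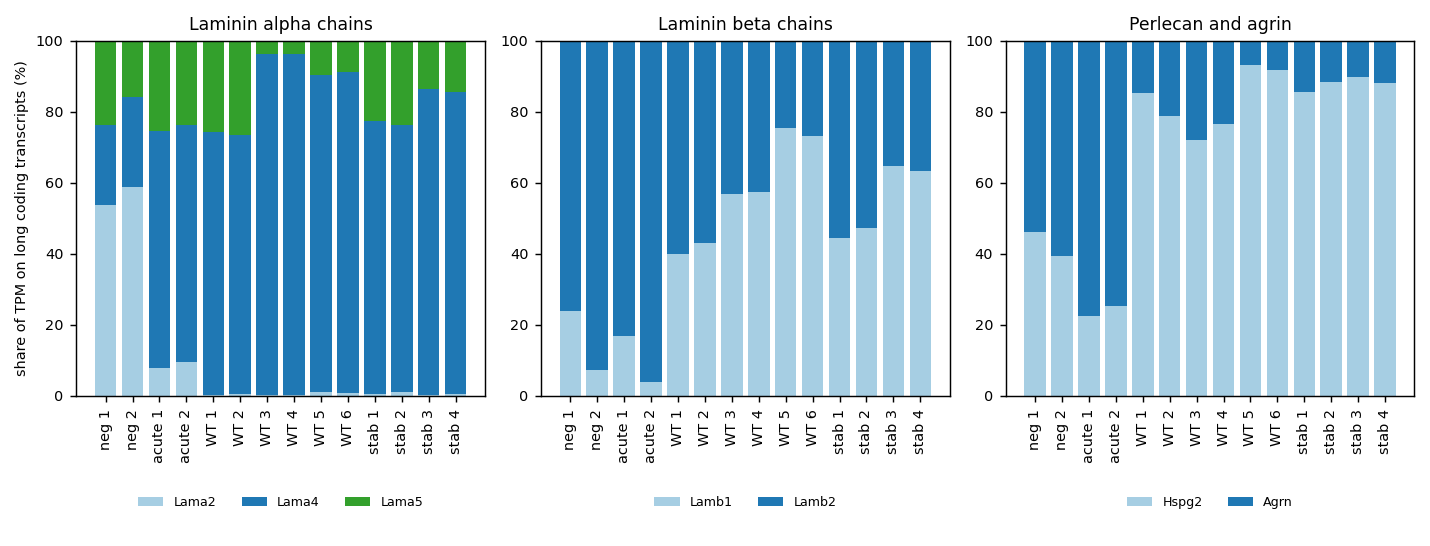
Stacked bars of the share (%) of TPM on long coding transcripts held by each laminin alpha chain, each laminin beta chain, and perlecan or agrin, with 1 bar per RNA-seq library (neg, GFP-negative; acute, acutely isolated ECs; WT and stab, the cultures). Lamb1 holds at most 16.9% of the beta chains in acutely isolated ECs and at least 40.1% in every culture, and Hspg2 goes from at most 25.2% to at least 72.1%.

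The same TPM values put the genes in order within a group. In acutely isolated ECs the order of mean TPM was Agrn at 42.7, Lamb2 at 35.5, Lamc1 at 23.4, Nid1 at 22 and Lama4 at 20.3, followed by Hspg2 at 13.1, Nid2 at 8.16, Lama5 at 7.53, Lamb1 at 4.07 and Lama2 at 2.58. Only Lamb2 over Lamc1 and Lama4 over Hspg2 were neighbours whose ranges did not overlap. In WT cultures the order was Nid1 at 112, Lamb1 at 74.2, Lama4 at 68.8, Lamc1 at 51.3 and Lamb2 at 51.2, then Hspg2 at 43.0, Nid2 at 31.3, Lama5 at 11.4, Agrn at 7.47 and Lama2 at 0.428. There the range of each gene overlapped that of the next, except for Agrn over Lama2. With all transcripts counted, the first places in acutely isolated ECs went to Lamb2 at 212 TPM and Lamc1 at 150 TPM, followed by Agrn at 65.0 TPM, and on long coding transcripts Lamb2 exceeded Agrn in acutely isolated replicate 2 (38.8 against 30.4 TPM). Stabilized cultures put Lama4 at 130, Hspg2 at 127 and Lamc1 at 126, with overlapping ranges.

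The sorted cells were compared to ask which of these genes were higher in the GFP-positive fraction. Pericyte markers summed to 541 to 553 TPM in that fraction and 377 to 743 TPM in GFP-negative cells. Their part in the differences below was not tested. Of the 10 genes, 2 were called higher in GFP-positive than in GFP-negative cells, where 8.3% of 15102 tested genes were called higher, and 1 was called lower, where 7.56% were. On the log2 scale Agrn stood at 2.79 ± 0.45 (SE, edgeR adjusted p = 0.00822) and Lama4 at 2.11 ± 0.40 (adjusted p = 0.0127). Lama2 was lower in ECs, at −2.21 ± 0.37 (adjusted p = 0.00928). Agrn kept its call in 13 of 13 alternatives, and Lama4 and Lama2 each in 12 of 13. Lama4 lost it without GFP-negative replicate 1, at an adjusted p of 0.0506.

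Most of the others leaned to the ECs without passing the rule. Nid2 stood at 2.78 ± 0.82 (SE, adjusted p = 0.0482) but was at 4.63 TPM in acutely isolated replicate 2, under the minimum. With Nid2, 4 of the 10 had an adjusted p under 0.05, against 29.7% of all tested genes. Hspg2 stood at 1.66 ± 0.50 (adjusted p = 0.0515) and was called in 5 of 13 alternatives. Lama5, Nid1, Lamc1 and Lamb2 ran from 0.88 to 1.06, and Lamb1 was at 0.31 ± 0.94. The median over the 10 genes was 1.0, against −0.06 over all tested genes.

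The 2 acutely isolated libraries differed from each other in the same direction for all 10 genes. Replicate 1 was higher by 1.47-fold to 6.33-fold after each library was centred on its median, with a median of 2.29-fold, a ratio passed by 15.4% of 13784 tested genes. In GFP-negative cells 6 of 10 were higher in replicate 1. Replicate 1 also had the higher astrocyte marker sum (467 against 87.7 TPM) and the lower share of hemoglobin counts (0.329% against 2.13%), and the part of these in the gap was not tested. Against GFP-negative cells, all 10 log2 fold changes were higher without acutely isolated replicate 2 than without replicate 1. Agrn stood at 3.24 without replicate 2 and 2.02 without replicate 1, and Nid1 at 1.59 and −0.38.

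Stabilized and WT cultures were compared to ask whether beta-catenin altered these genes. No gene of the 10 was called, and none of 12958 tested genes was, so the background was 0% in each direction. At an unadjusted edgeR p under 0.05 there were 1344 genes and 4 of the 10, and DESeq2 called 14 genes higher and 3 lower. All 10 log2 fold changes were above 0, with a median of 0.84 against −0.04 over all tested genes. Lamc1 came first, at 1.26 ± 0.27 (SE, unadjusted p = 0.000777, adjusted p = 0.266), and was called by DESeq2 at 1.25. Hspg2 stood at 1.25 ± 0.61, Lama5 at 1.09 ± 0.86, Agrn at 1.04 ± 0.41 and Lama2 at 0.90 ± 0.79. Lamb2 at 0.78 ± 0.32, Lama4 at 0.75 ± 0.34, Lamb1 at 0.40 ± 0.39, Nid2 at 0.25 ± 0.23 and Nid1 at 0.15 ± 0.34 were smaller.

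Part of that shift went with the 150-cycle WT libraries, which have no stabilized counterpart. With 36-cycle libraries only, the median over the 10 genes was 0.46, and with isolation method as a further term it was 0.43, with Lamc1 called at 1.0 ± 0.19 (SE, adjusted p = 0.0144). Within method A, where the WT wells were of another strain, all 10 were above 0, and for 9 the adjusted p was under 0.05, as it was for 56% of 12848 tested genes in either direction. Of these, Lamc1 at 1.45 ± 0.12 and Hspg2 at 1.36 ± 0.15 were called higher and none of the 10 lower, against 5.39% and 0.918% of all tested genes. Within method B at 36 cycles, 5 of the 10 were higher at an adjusted p under 0.05 and 2 were lower, Lama2 at −1.19 and Lamb1 at −0.28, where 37.1% of 12835 tested genes passed in either direction. None of the 10 was called there, against 1.08% of genes called higher and 0.28% called lower. Each of these comparisons set 2 wells against 2, so its error is that between wells of the same preparation. The genotype cannot be told apart from the preparation.

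The effect of stabilization was tested for a difference between the isolation methods on the 8 36-cycle cultures. Each method contributed 2 wells of each genotype, so the error is that between wells of the same preparation. The WT wells of method A were of the C57BL/6J strain, so method, strain and preparation cannot be told apart. Methods were assigned by the study's methods section, which a figure legend contradicts for WT replicates 5 and 6. Of the 10 genes, 4 had an effect that was lower in method B by more than 1 on the log2 scale at an adjusted p under 0.05, where 9.09% of 13356 tested genes did, and none was higher, where 6.25% were. Lama2 differed by −2.63 ± 0.48 (SE, edgeR adjusted p = 0.00224), going from 1.47 within method A to −1.19 within method B. Lama2 was at most at 4.51 TPM in these cultures, under the minimum of 5 that this test did not apply. Hspg2 differed by −1.15 ± 0.25 (adjusted p = 0.00547), from 1.36 to 0.18. Lamb1 differed by −1.09 ± 0.12 (adjusted p = 0.00027), from 0.82 to −0.28. Nid1 differed by −1.06 ± 0.17 (adjusted p = 0.00119), from 0.86 to −0.23. The call of Hspg2 was lost without WT replicate 5 (−0.87) or stabilized replicate 2 (−0.93), as was that of Nid1 (−0.93 and −0.91).

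The other 6 genes differed less. Lamc1 at −0.85 ± 0.15 (SE, adjusted p = 0.00184), Lama4 at −0.65 ± 0.09 (adjusted p = 0.000522) and Nid2 at 0.67 ± 0.10 (adjusted p = 0.000893) passed on the adjusted p with a difference under 1, which made 7 of the 10 under 0.05, against 49.6% of all tested genes. Lama5, Agrn and Lamb2, at 0.28, 0.25 and −0.11, did not pass. Lamb2, Lamc1, Lama5 and Agrn were higher in stabilized cultures within both methods at an adjusted p under 0.05, by 0.43 to 1.45 on the log2 scale. Of all tested genes, 56% passed that threshold within method A and 37.1% within method B at 36 cycles, in either direction. The share of all genes that were higher within both methods is not given here. Whether passing in both sets these genes apart from the rest therefore cannot be said.

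**Figure D4:**
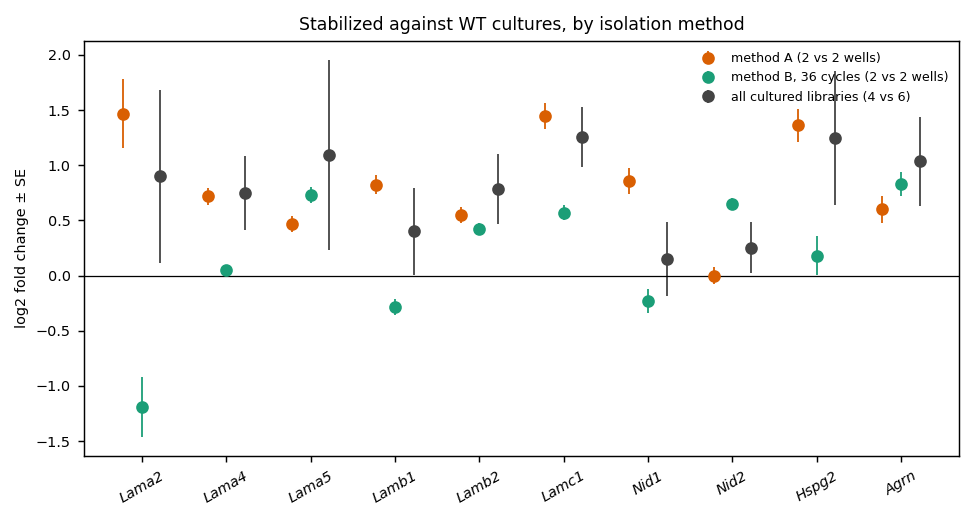
Log2 fold change (y axis) of stabilized against WT cultures with its standard error for each of the 10 genes, within method A, within method B at 36 cycles and over all cultures. All 10 points of method A lie above 0, while Lama2, Lamb1 and Nid1 lie below 0 in method B, at −1.19, −0.28 and −0.23.

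Of the further laminin chains Lama1, Lama3, Lamb3 and Lamc3, none was called in WT culture, where Lamb3 had too few counts to be tested. Lamc3 stood at −4.10 ± 0.72 (SE, edgeR adjusted p = 0.00216) and was under the TPM minimum. Lama1 stood at 2.07 ± 0.92 (adjusted p = 0.0934) in WT cultures and was called higher in stabilized cultures, at 3.04 ± 0.61 (adjusted p = 0.00592). Lama3 did not pass in either. In the sorted cells none of these 4 was called, Lama3 standing at 2.75 and Lamb3 at −5.79.

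Of 8 basement membrane collagens, 1 rose in WT culture, where 13.5% of all tested genes were called higher and 10.2% lower. Col18a1, the source of endostatin, had a log2 fold change of 4.04 ± 0.74 (SE, edgeR adjusted p = 0.00277), after being lower in acutely isolated ECs than in GFP-negative cells (−1.60 ± 0.38, adjusted p = 0.0261). The main collagen IV chains Col4a1 and Col4a2 were higher in ECs of the sort, at 2.20 and 2.29, and Col4a1 rose in stabilized culture, at 1.70. Of 10 other linkers and matrix proteins, 2 rose and 1 fell in WT culture. Pxdn, the peroxidase that forms sulfilimine bonds in collagen IV, stood at 4.03 ± 0.68 (adjusted p = 0.00183), Tinagl1 at 1.04 ± 0.28 and the integrin ligand Npnt at −1.98 ± 0.52. In the sorted cells Egfl7 (8.00), Sparc (2.26) and Ecm1 (1.82) were higher in ECs. Of 5 netrins, which share the laminin N-terminal domain, none of the 3 tested in culture was called, and Ntn4 was lower in ECs of the sort, at −1.41.

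The receptors for these proteins changed in both directions. Of 10 laminin receptors, 3 rose and 2 fell in WT culture, against 13.5% and 10.2% of all tested genes. Itga3 (3.77 ± 0.83, SE, edgeR adjusted p = 0.00644), Mcam (2.68 ± 0.72, adjusted p = 0.0152) and Itgb1 (1.53 ± 0.50, adjusted p = 0.0344) rose. Itga1 fell (−2.15 ± 0.58, adjusted p = 0.0148), and so did Dag1, which encodes dystroglycan (−1.44 ± 0.47, adjusted p = 0.033) and is named here after its values were seen. In the sorted cells Itga6 (3.17) and Itga1 (2.0) were higher and Itga7 (−2.92) and Mcam (−2.59) lower in ECs. Lrp4, the agrin receptor, stood at −5.16 ± 0.93 in WT culture and did not meet the TPM minimum, and Musk was not tested there.

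Of 10 genes for assembly and modification of laminin and collagen, 6 rose and none fell in WT culture, against the 13.5% and 10.2% of all genes. The 4 with the largest fold changes were the prolyl hydroxylase subunits P4ha2 (2.90 ± 0.40) and P4ha1 (1.40 ± 0.49), the collagen chaperone Serpinh1 (1.55 ± 0.37) and the lysyl hydroxylase Plod1 (1.32 ± 0.29). In stabilized culture 8 of 10 rose, where 15.1% of all tested genes were called higher. Of 15 genes of heparan sulfate synthesis, 3 rose (B4galt7 at 2.25, Ext1 at 1.57 and Hs2st1 at 1.40) and Extl3 fell (−2.21). The lists were chosen with earlier results of these data known, and their counts are descriptions.

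In stabilized against WT culture no gene of any of these lists was called. In the test of the effect between methods, Lamc3 differed by −2.22 ± 0.25 (SE, edgeR adjusted p = 0.00027). Among the linkers, of which 3 were lower and 2 higher in method B, the largest differences were those of Ecm1 (−3.41), Smoc2 (−3.05), Npnt (−2.63) and Fbln1 (1.25). Over all tested genes 9.09% were lower and 6.25% higher. Of single genes in the other lists, Col15a1 (1.13) and Bcam (1.17) were higher and Ntng2 (−1.44), Itga2 (−1.33) and Plod2 (−1.17) lower.

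The ATAC-seq libraries were 2 of acutely isolated ECs, 6 of WT cultures, with replicates 1 and 2 by method A, and 2 of method B stabilized cultures. A promoter was counted as accessible when a peak with a fold enrichment over 2 and a −log10 q over 2 lay within 1000 bases of the gene start. The promoters of 7 of the 10 genes (Lama4, Lamb2, Lamc1, Nid1, Nid2, Hspg2 and Agrn) were accessible in all acutely isolated and WT cultured libraries, where 47% of 21807 protein-coding genes were. None of the 10 had a promoter peak in all 6 WT cultures and no acutely isolated library (1.6% of genes) or the reverse (0.28%). The libraries held 31779 to 98732 peaks past this filter, fewest in acutely isolated replicate 2 and WT replicate 2, and the count of genes with a promoter peak moved with that number.

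The Lamb1 promoter printed above had no peak in either acutely isolated library. Its fold enrichment in WT cultures was 3.32, none, 5.6, 5.13, 6.27 and 6.77, and it was 5.94 and 4.90 in stabilized cultures. The 300-base RefSeq promoter of Lamb1 held 2 SP/KLF matches and no AP-1, ETS, TEAD or TCF/LEF match. WT replicate 2, the culture without this peak, had the fewest peaks of the cultures. It held 33122 peaks past the filter, and the acutely isolated libraries held 37384 and 31779. The part of peak number in the promoter difference of Lamb1 was not tested. The Lamb1 transcript, measured in separate libraries, was higher in culture.

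The Agrn promoter at the gene start had a fold enrichment of 9.96 to 11.0 in acutely isolated ECs, 8.28 to 14.4 in WT cultures and 12.6 to 13.1 in stabilized cultures. The ranges overlapped. Hspg2 ranged from 14.6 to 16.2 in acutely isolated ECs and 6.17 to 12.2 in WT cultures, and Lamb2 from 14 to 14.3 and 4.38 to 10.9. Lamc1 went from 12.7 and 14.1 to between 6.92 and 9.98, whereas Lama4 went from 5.78 and 6.67 to between 4.69 and 13.9. Lama5 had a peak in both acutely isolated libraries (6.75 and 6.68) and in 5 of 6 WT cultures, and Lama2 had none in any library. The RefSeq promoter of Lama2 used for motifs, chr10:27616893-27617192, lies outside the window at its gene start. A region overlapping that promoter was present in 1 WT culture, at a fold enrichment of 2.79.

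**Figure D5:**
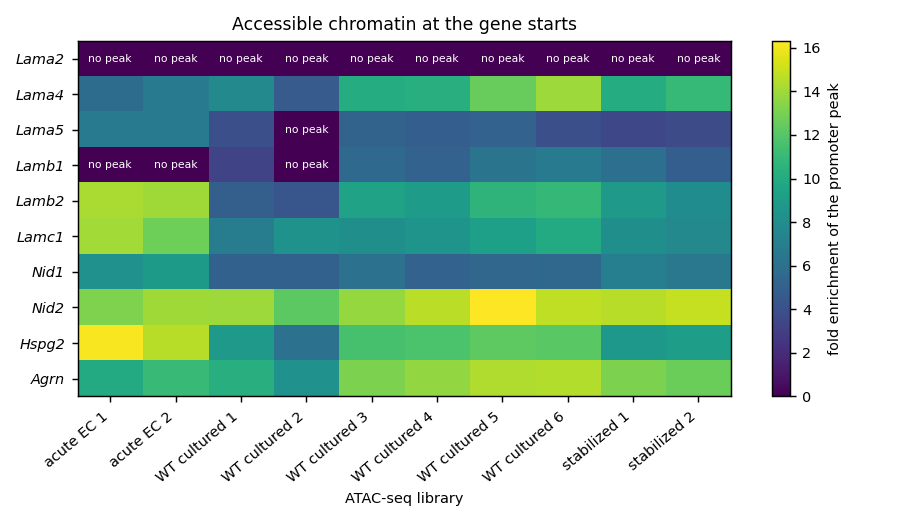
Heat map of the fold enrichment of the strongest promoter peak of each of the 10 genes (rows) in each of the 10 ATAC-seq libraries (columns), with 0 for no peak past the filter. Lamb1 is at 0 in both acutely isolated libraries and reaches 6.77 in WT cultures, and Agrn lies between 8.28 and 14.4 in every library.

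Beyond promoters, 141 accessible regions lay in the bodies of the 10 genes or within 10000 bases before them. Of these, 20 (14.2%) were present in both acutely isolated and all 6 WT cultured libraries, where 13.4% of all 125868 regions were. A further 8 (5.67%) were present in all 6 WT cultures and neither acutely isolated library, where 8.11% of all regions were, and 3 (2.13%) in both acutely isolated and no WT cultured library, where 2.92% were. None of these shares stood far from that of all regions. The 8 regions present only in culture by this rule were all in stabilized cultures too, and 7 of the 8 lay in introns. Without WT replicate 2 their number was 20, with 16.0% of all regions passing.

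The region 6300 bases into Lamb1 had a fold enrichment of 7.68 to 12.7 in WT cultures. Both Lamc1 regions printed above reached 20.3 and 22.3 in WT cultures, the highest of the 8, from lows of 4.84 and 10.7. The Nid1 region ranged from 2.85 to 6.06. The others were 2 regions deep in Lama2 (up to 16.6 and 15.3), 1 in Lama4 (8.28 to 13.6) and 1 over an exon of Hspg2 (4.32 to 10.6). The 3 regions present only in acutely isolated ECs were 1 in Lama5 and 2 in Lamc1, with a fold enrichment of 2.75 to 6.11, and none of them passed at a fold enrichment over 4 with a −log10 q over 5.

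The AP-1 motif TGANTCA, searched on both strands, was in 7 of the 8 regions present only in culture, all but that of Lama4. It was in 52.6% of all 10206 such regions and in 27.6% of all 125868 regions of the same length. It was in 4 of the 20 regions shared by all libraries (12.8% of all such regions) and in none of the 3 present only in acutely isolated ECs (5.88%). The TEAD motif CATTCC was in 3 of the 8 (28.2% of all such regions) and the TCF/LEF motif CTTTGA in 1 of the 8 (18.4%). In the 300-base promoters, the SP/KLF motif GGGCGG was in 6 of 7, all but that of Lamb2, and in 35.7% of 32851 promoters. TCF/LEF was in 2, TEAD in 1 and AP-1 and the ETS motif CCGGAAG in none of the 7, where 16.0%, 14.7%, 7.81% and 8.86% of promoters held them. A match is a string of letters and not a bound site.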

How the data were processed

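RNA-seq was available for 14 libraries in 4 groups and ATAC-seq for 10 libraries in 3 groups, grouped by their titles, genotypes and cell types. The authors quantified RNA-seq reads with Salmon 0.14.0 on GENCODE M21, and for each of 140198 transcripts the deposited files give the estimated count, TPM and effective length. ATAC-seq reads were aligned by the authors to GRCm38 with HISAT2 2.1.0, peaks were called library by library with MACS2 2.1.2, and the deposited lists give the fold enrichment and −log10 q of each peak. Tool names and versions are from the submitters' processing notes and the study's methods, as are isolation method and read cycles.

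Counts and TPM were summed per gene, and summed counts were rounded. The quasi-likelihood test of edgeR 4.0.16 (R 4.3.3) was run on protein-coding genes that passed filterByExpr, after TMM scaling, each comparison on its own libraries, with Benjamini-Hochberg adjustment over all tested genes. Standard errors were derived from each fitted change and its F value. A call needed an adjusted p under 0.05, a log2 fold change beyond 1 in size and, except in the test between isolation methods, a TPM of at least 5 in each library of the higher group. The fit was also run on simulated counts of independent libraries. These had no wells shared by an experiment, so that run cannot show how p-values behave with such wells. At these depths counting error was small beside the spread between libraries. Scaled CPM used TMM factors over all 14 libraries.

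Peaks with a fold enrichment over 2 and a −log10 q over 2 were merged across libraries where they shared at least 1 base, and motifs were searched on both strands. Promoter sequences were from RefSeq (GRCm38.p6), and those of the 7 genes with an entry matched the GRCm38 genome.

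The 10 genes, the other gene lists and the marker lists were chosen with earlier results of these data known. The text names all 10 genes in every comparison, the other laminin chains and, from each further list, at most the 4 called genes with the largest absolute log2 fold change, with 1 exception marked where it stands. Some results for genes of the further lists are not reported here. Alternatives were DESeq2 1.42.0, its size factors, library size alone, an effective-length offset, no filter, no TPM minimum, all 14 libraries in one fit, the replicate number as a block, wells summed per experiment, subsets by method and read length, each replicate left out, and, chosen after seeing the data, long coding transcripts only. For ATAC-seq they were a stricter threshold, a window of 500 bases to each side, the peak summit and each replicate left out.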

Additional observations from a re-analysis of the deposited data

Results flagged for a closer look

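The effect of stabilization differed between isolation methods for 7 of the 10 genes by edgeR's interaction test on the 36-cycle cultures (method B minus method A, log2 scale). The differences were −2.63 for Lama2, −1.15 for Hspg2, −1.09 for Lamb1, −1.06 for Nid1, −0.85 for Lamc1, −0.65 for Lama4 and 0.67 for Nid2. Lama2 was at most at 4.51 TPM in these cultures, under the TPM minimum used in the other comparisons. Each method contributed 2 wells of each genotype, and the WT wells of method A were of the C57BL/6J strain, so method, strain and preparation cannot be told apart. Over all tested genes 49.6% had an adjusted p under 0.05 in this test.

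The promoter peak of Lama5 had a fold enrichment of 0, that is no peak past the filter, in WT cultured ATAC-seq replicate 2, while the other 5 WT cultures lay between 3.98 and 5.17. Of 29 groups of values examined, RNA-seq and ATAC-seq together, this was the 1 in which a library stood apart. Chance alone sets about 1 in 20 groups apart by this measure. The same library also lacked the Lamb1 promoter peak and held 33122 peaks past the filter, the fewest of the cultures. The part of peak number in this result was not tested.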

How the results depend on the processing

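Agrn kept its call in every alternative of the 3 comparisons with acutely isolated ECs, Lamb1 stayed above 0 in all alternatives of both culture comparisons, and of the calls of Lama4 and Lama2 in the sorted cells 1 alternative each ended 1 (all 14 libraries in one fit for Lama2). Where a value below changed, the cause was not tested, except that fewer libraries or no TPM minimum change a count by construction. Scaling by library size alone moved the centre of the fold changes, whose median over tested genes was 0.30 in culture against 0.10 with TMM, −0.44 against −0.06 in the sorted cells and 0.16 against 0.04 in stabilized culture, and values should be read relative to it.

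In WT culture, 1866 genes were called higher and 1409 lower. Without the TPM minimum there were 3160 and 2825, with wells summed 834 lower, and against 150-cycle cultures 2867 higher. Of the 10 genes, 1 rose, and 0 did with wells summed, method A alone or 150-cycle cultures alone. The number lower was 1, and it was 2 with DESeq2, with no TPM minimum, with all 14 libraries in one fit or with method B at 36 cycles, 3 with the length offset and 4 with 150-cycle cultures. Leaving out 1 library gave 1312 to 1901 genes higher and 0 to 1 of the 10.

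In the sorted cells, 1254 genes were called higher and 1142 lower. The length offset gave 669 higher, long coding transcripts 748 higher and 753 lower, and no TPM minimum 2980 lower. With all 14 libraries in one fit 0 of the 10 were lower. Leaving out 1 library gave 663 to 1662 genes higher and 1 to 7 of the 10.

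In stabilized against WT culture, 0 genes were called in either direction by edgeR. DESeq2 gave 14 higher (1 of the 10) and 3 lower, method A alone 692 (2 of the 10) and 118, method B at 36 cycles 138 and 36, and method as a term 66 (1 of the 10) and 10. In stabilized culture against acutely isolated ECs, no TPM minimum gave 3408 genes higher and 3209 lower, against 2091 and 1527. There, 1 of the 10 was called lower, and 2 were with the length offset or no TPM minimum. Of the 3 higher, 1 was with wells summed or method A alone and 0 with method B alone, and leaving out 1 library gave 2 to 6. Between methods, 4 of the 10 were lower, 2 with library size alone and 2 to 5 without 1 library.

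The replicate block gave 149 genes higher and 24 lower in stabilized against WT culture, with Lamb1 (1.10) and Lamc1 (1.55) among them, 2 of the 10. Same-numbered samples did not deviate together in every pair (r = 0.57, 0.56, 0.05 and 0.12 there, −0.05 and 0.04 in culture, 0.08 and 0.08 in the sorted cells), so the numbers were not read as pairs. Not every sample correlated best with its own number, since WT replicate 1 did so with stabilized replicate 2 (r = 0.64).

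Signs changed as follows, Col4a1 being the only one of these values that was called as reported. In WT culture Lama5 was at 0.45 with the length offset, 0.70 with the replicate block, 0.59 with method A alone and −1.06 to 0.090 without 1 library. Hspg2 was at −0.43 with the length offset, −2.02 with 150-cycle cultures and −0.18 to 1.13 without 1 library. Nid2 was at −0.0071 with long coding transcripts, −0.31 with method B at 36 cycles and −0.43 to 1.44 without 1 library. Nid1 was at −0.21 and Lama3 at 0.20 with method A alone, Lama3 at 0.25 with the block, and Lama4 at −0.53 with 150-cycle cultures. In the sorted cells Lamb1 was at −0.14 and Lama1 at −0.16 with library size alone, and Lamb1 at −1.28 with the length offset. Without 1 library Lamb1 ran from −1.63 to 1.58, Lama1 from −0.31 to 0.98 and Nid1 from −0.38 to 1.59. In stabilized against WT culture, method B at 36 cycles gave −1.19 for Lama2, −0.28 for Lamb1, −0.23 for Nid1 and −0.89 for Lamc3, and Nid1 ran from −0.0016 to 0.31 without 1 library. In stabilized culture the length offset gave −1.02 for Lamc1 and −0.13 for Col4a1. Lamb2 was at 0.12 with the block, 0.094 with method A and −0.43 to 0.030 without 1 library. Method B alone gave −0.44 for Lama5 and −0.68 for Lama3, and without 1 library Lama3 ran from −0.020 to 0.78 and Nid2 from −0.14 to 1.71.

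At the stricter peak threshold 0 regions of the 10 genes were present only in acutely isolated ECs. Leaving out 1 library gave 3 to 5 such regions and 8 to 20 present only in culture.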

Other observations

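Agrin transcripts differed between groups in which coding model carried the reads. Agrn-202, a coding transcript of 7193 bases, held 0% of the TPM of Agrn in all 4 sorted libraries, 22.2% to 56.0% in WT cultures and 33.6% to 45.6% in stabilized cultures. Agrn-205, a retained-intron transcript, held 0% and 57.8% in the 2 acutely isolated libraries. Salmon estimates these divisions, and the sorted libraries differed from the cultures in read type.

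The choice of scale moved several genes between acutely isolated and WT cultured ECs. The ratio of group means, culture over acutely isolated, was 0.677 for Lama5 in scaled CPM and 1.80 in TPM, 1.66 and 5.42 for Nid1, 1.18 and 3.95 for Nid2, and 1.30 and 1.06 for Hspg2. It was 0.0689 and 0.141 for Agrn and 6.82 and 13.7 for Lamb1, on the same side of 1 on both scales.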
